A study of Mus musculus with 15 samples.

Results

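Cxcl9, Cxcl10, Irf1, Iigp1, Tgtp2 and Ifi47 are 6 genes that interferon gamma induces in mouse cells, and they are described here in optic nerves after crush. They were taken by gene name from the 14237 genes of the deposited expression table, in which all 6 are listed, and were followed through all 15 libraries. The 6 were picked with earlier results of these libraries in view. Their own levels and differences are therefore given as a description with no test, and tests are kept for other genes of the pathway. The lists of those genes were also chosen with earlier results known, and Tgtp1 among them shares most of its transcript sequence with Tgtp2. Their calls and counts are therefore not independent support.

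RNA of whole optic nerves from adult C57BL/6J mice was sequenced in 3 groups, each with 5 biological replicates that carry the numbers 2 to 6. In the first group the eye had received an intravitreal injection of AAV2 (an adeno-associated virus used for gene delivery) carrying a secretable form of CNTF, ciliary neurotrophic factor, and the optic nerve was crushed 2 weeks later and collected 7 days after crush. The second group received AAV2-Null, the vector without a transgene, with the same crush and times. The third received AAV2-Null and a sham operation in which the nerve was exposed and not crushed, and the labels give no times for it. These groups are called crush AAV-CNTF, crush AAV-null and sham AAV-null. All 3 carry a viral injection, so no group shows a nerve without vector. The sources used here do not name the promoter that drives CNTF.

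Interferon gamma is released mainly by T cells and natural killer (NK) cells. It binds a receptor made of Ifngr1 and Ifngr2, and the attached kinases Jak1 and Jak2 pass the signal on to GAS elements in target promoters. Irf1 is an early target and itself a transcription factor that binds interferon-stimulated response elements (ISRE), so it carries the response to further genes. Cxcl9 and Cxcl10 are secreted chemokines that draw T and NK cells through the receptor Cxcr3. Iigp1, Tgtp2 and Ifi47 are immunity-related GTPases (IRG), cytosolic proteins that attack the vacuoles of intracellular parasites in mouse cells. Type I interferons signal to ISRE with Irf9 and induce part of the same genes, Cxcl10 and Irf1 among them, while Cxcl9 is known as a more specific target of interferon gamma. In the central nervous system microglia, infiltrating macrophages and astrocytes can make these chemokines.

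The promoters of the members are shown because GAS and ISRE elements are known to carry the interferon gamma response. The sequences are from RefSeq, build GRCm38.p6. Promoters of 5 of the 6 members were examined here, with 2 start sites for Irf1, and the remaining member was not examined. The 250 bases before the start site are printed 5′ to 3′ on the strand of the gene. Capitals mark matches to the GAS letters TTCNNNGAA or to the ISRE core, which is GAAA, any 2 bases and GAAA again. Both were searched on both strands from 250 bases before to 50 bases after the start site. The 4 lines below are Cxcl9 at chr5:92328080-92328329 on the minus strand, Cxcl10 at chr5:92348890-92349139 on the minus strand, Irf1 (the upstream start) at chr11:53769764-53770013 on the plus strand and Tgtp2 at chr11:49064213-49064462 on the minus strand.
Cxcl9: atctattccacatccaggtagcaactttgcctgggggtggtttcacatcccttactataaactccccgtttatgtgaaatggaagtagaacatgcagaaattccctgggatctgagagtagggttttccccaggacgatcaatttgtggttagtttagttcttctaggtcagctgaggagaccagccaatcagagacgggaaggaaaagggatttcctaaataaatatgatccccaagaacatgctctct
Cxcl10: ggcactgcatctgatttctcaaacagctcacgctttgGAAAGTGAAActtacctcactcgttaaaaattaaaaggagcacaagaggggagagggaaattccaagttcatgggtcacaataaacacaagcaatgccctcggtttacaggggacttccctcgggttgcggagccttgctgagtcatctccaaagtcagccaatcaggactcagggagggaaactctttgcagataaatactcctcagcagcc
Irf1: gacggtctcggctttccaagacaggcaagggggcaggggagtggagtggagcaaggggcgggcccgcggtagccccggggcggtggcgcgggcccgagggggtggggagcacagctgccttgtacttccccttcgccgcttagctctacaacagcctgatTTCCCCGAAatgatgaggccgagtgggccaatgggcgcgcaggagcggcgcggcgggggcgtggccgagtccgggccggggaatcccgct
Tgtp2: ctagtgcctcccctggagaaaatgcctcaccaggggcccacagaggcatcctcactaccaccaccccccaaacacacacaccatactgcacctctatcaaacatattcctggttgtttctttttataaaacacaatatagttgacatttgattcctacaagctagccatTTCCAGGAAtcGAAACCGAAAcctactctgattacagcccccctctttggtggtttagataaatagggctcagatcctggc

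The Cxcl10 promoter held 1 ISRE core, GAAAGTGAAA, whose start lies at -213 from the start site. In Irf1 there was 1 GAS match, TTCCCCGAA, at -90. Tgtp2 held both, the GAS match TTCCAGGAA at -81 and the ISRE core GAAACCGAAA at -70. Neither motif was found in this window of Cxcl9, Ifi47 or the second start of Irf1. Elements that depart from these exact letters were not searched, so this does not show that a response element is absent. For comparison, 8.3% of 32851 RefSeq mouse promoters of the same length held a GAS match, 3.44% held an ISRE core and 11.3% held either, so a match alone is common.

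The arrangement in Tgtp2, a GAS match followed after 2 bases by an ISRE core on the same strand, was found in 5 of the 32851 promoters (0.0152%). All 5 belong to IRG genes, namely Tgtp2, Tgtp1, Irgm2, Igtp and Gm12185. The windows of 41 bases around it are shown for the 4 of these genes that have values in the table: Tgtp2 at chr11:49064263-49064303 (minus strand), Tgtp1 at chr11:48992304-48992344 (minus), Irgm2 at chr11:58214892-58214932 (plus) and Igtp at chr11:58199501-58199541 (plus). These genes descend from a common family, and the windows share sequence outside the capitals as well.
Tgtp2: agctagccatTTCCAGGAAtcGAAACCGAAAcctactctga
Tgtp1: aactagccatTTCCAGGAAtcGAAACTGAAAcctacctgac
Irgm2: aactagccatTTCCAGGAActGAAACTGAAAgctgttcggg
Igtp: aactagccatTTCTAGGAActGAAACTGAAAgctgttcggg

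Positions below are from GENCODE M21 (mm10). Cxcl9 (ENSMUSG00000029417, chr5:92321347-92328079, minus strand) and Cxcl10 (ENSMUSG00000034855, chr5:92346638-92348889, minus strand) are neighbours separated by 18558 bases. Irf1 (ENSMUSG00000018899) lies at chr11:53770014-53778374 on the plus strand. Tgtp2 (ENSMUSG00000078921, chr11:49057194-49064206, minus strand) and Ifi47 (ENSMUSG00000078920, chr11:49076587-49096974, plus strand) are separated by 12380 bases in an IRG cluster of chromosome 11, and Iigp1 (ENSMUSG00000054072) lies in another IRG cluster, on chromosome 18. All 6 are annotated as protein coding. Tgtp2 is uncertain as a single gene, since 85.8% of the 50-base words in its transcripts also occur in Tgtp1. Exons of Cxcl10 overlap those of Art3 on the other strand, exons of Irf1 overlap Gm17334 on the other strand, and exons of Ifi47 overlap Olfr56 on the same strand. The sources used here do not say whether the counting used the strand.

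Depth, the sum of expected counts over the genes of the table, was 23775487 to 29558293 in crush AAV-CNTF libraries, 19918858 to 29138927 in crush AAV-null libraries and 19856688 to 26411929 in sham libraries. Summed oligodendrocyte markers (7 of 7 listed, with Mbp among them) were 16300 to 23800 CPM (counts scaled to library size) in crush AAV-CNTF nerves and 20100 to 28700 CPM in crush AAV-null nerves, against 49200 to 62500 CPM in sham nerves. Summed astrocyte markers (6 of 6) were 4590 to 5630 CPM and 4220 to 5650 CPM in these crush groups, against 6900 to 7600 CPM in sham nerves. None of 6 photoreceptor markers was listed. Summed macrophage and microglia markers (12 of 12 listed) were 1960 to 2690 CPM in crush AAV-CNTF nerves and 2130 to 3270 CPM in crush AAV-null nerves, against 669 to 891 CPM in sham nerves. These marker sums move with every difference over sham given below, and their part in it was not tested. Crush AAV-null replicate 6 stood apart from the other libraries on the second principal component (-99.7, against -8.98 to 24 in the other 14). Cntf itself was at 4.37 to 8.42 CPM in crush AAV-CNTF nerves, 0.767 to 9.4 CPM in crush AAV-null nerves and 11.7 to 24.5 CPM in sham nerves, and since the vector was injected into the eye this does not check the labels. Every gene in the table reaches an FPKM (fragments scaled by gene length and depth) of 1 in 4 or more libraries of a group. Of the 6 members, 5 met this in crush AAV-null or sham nerves too, while Cxcl9 met it through the crush AAV-CNTF group only, so a difference was built into its listing.

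The chemokine Cxcl9 showed the widest spread of the 6. Its levels in crush AAV-CNTF replicates 2 to 6 were 55.1, 14.7, 648, 70.0 and 1.56 CPM. In crush AAV-null nerves they were 1.42, 1.64, 0, 1.72 and 0 CPM, and in sham nerves 0, 2.49, 0.652, 0 and 0.081 CPM. Thus 4 of 5 crush AAV-CNTF nerves stood above every AAV-null nerve of either kind, replicate 4 far above the rest, and replicate 6 was within the crush AAV-null range. All 5 crush AAV-CNTF libraries together held 23712 counts of Cxcl9, against 104 in crush AAV-null and 70 in sham libraries, and 4 libraries (2 crush AAV-null and 2 sham) held none. The fitted log2 difference between crush AAV-CNTF and crush AAV-null was 7.42 ± 1.31 (SE, 5 libraries each), and 5.23 ± 1.16 without AAV-CNTF replicate 4. In whole nerve, more cells that make an RNA and more of that RNA per cell cannot be told apart, and this holds for every level given here.

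Cxcl10, the second chemokine of the Cxcr3 receptor, was present in every library. It was at 30.9, 48.1, 294, 63.3 and 17.4 CPM in crush AAV-CNTF replicates 2 to 6, at 15, 16.6, 11.8, 17.5 and 7.61 CPM in crush AAV-null nerves and at 5.54, 103, 14.6, 18.3 and 13.6 CPM in sham nerves. The crush AAV-null nerves were close together, 4 crush AAV-CNTF nerves lay above all of them, and sham replicate 3 stood above 4 of the 5 crush AAV-CNTF nerves. Its log2 difference, crush AAV-CNTF over crush AAV-null, was 2.73 ± 0.72 (SE), and 1.55 ± 0.58 without AAV-CNTF replicate 4. Against sham nerves it was 1.55 ± 0.68 with all libraries and 0.37 ± 0.57 without that replicate, so this value was small once that library was left out.

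Irf1, the transcription factor among the members, varied least. It was at 30.5, 20.6, 81.6, 39.2 and 18.2 CPM in crush AAV-CNTF nerves, at 10.2, 10.8, 14.1, 19.8 and 9.64 CPM in crush AAV-null nerves and at 8.33, 17.6, 17.1, 9.55 and 13.2 CPM in sham nerves. Only crush AAV-CNTF replicate 6 fell inside the crush AAV-null range, and all 5 crush AAV-CNTF nerves were above all 5 sham nerves. Irf1 was the 1 member of 6 with no overlap between these groups, and 11.9% of all 14194 genes tested were higher in this way. The log2 difference was 1.56 ± 0.35 (SE) over crush AAV-null nerves and 1.53 ± 0.35 over sham nerves, and without AAV-CNTF replicate 4 it was 1.07 ± 0.28 and 1.04 ± 0.28 in the same order.

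Iigp1, the best-studied effector IRG GTPase, was the only member without overlap between the crush groups. It was at 39.9, 13.7, 444, 56.5 and 10.7 CPM in crush AAV-CNTF nerves, at 6.99, 6.53, 7.39, 6.09 and 4.63 CPM in crush AAV-null nerves and at 2.21, 40.0, 5.63, 11.6 and 5.51 CPM in sham nerves. The crush AAV-null values were tight and every crush AAV-CNTF value lay above them, while sham replicate 3 reached the level of crush AAV-CNTF replicate 2. Of all genes tested, 0.838% were higher in crush AAV-CNTF than in crush AAV-null nerves without overlap. The members were chosen on results of this kind, so nothing is read from their count of 1 of 6. The log2 difference between the crush groups was 4.16 ± 0.89 (SE), and 2.25 ± 0.61 without AAV-CNTF replicate 4.

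Tgtp2, an IRG GTPase named after T cells, was at 27.4, 26.4, 294, 51.8 and 11.1 CPM in crush AAV-CNTF nerves, at 6.26, 11.5, 5.6, 14.1 and 8.36 CPM in crush AAV-null nerves and at 5.68, 24.4, 11.2, 8.53 and 7.25 CPM in sham nerves. Crush AAV-CNTF replicates 2 to 5 lay above all crush AAV-null nerves and replicate 6 lay among them. Since reads of Tgtp2 and Tgtp1 can be assigned to either gene, their sum was also taken. The summed level had a median of 40.3 CPM (15.8 to 456) in crush AAV-CNTF nerves, 17.1 CPM (8.46 to 19.1) in crush AAV-null nerves and 10.8 CPM (6.71 to 31.9) in sham nerves. The log2 difference of Tgtp2 alone between the crush groups was 3.16 ± 0.67 (SE), and 1.67 ± 0.42 without AAV-CNTF replicate 4.

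Ifi47, the third IRG GTPase, had the lowest median of the 6 in crush AAV-CNTF nerves in both CPM and FPKM and followed the others least closely. It was at 8.37, 14.2, 51.0, 19.7 and 2.63 CPM in crush AAV-CNTF nerves, at 0.147, 7.51, 2.61, 3.66 and 9.68 CPM in crush AAV-null nerves and at 0.49, 6.97, 7.31, 1.61 and 6.03 CPM in sham nerves. Here 3 of 5 crush AAV-CNTF nerves stood above every crush AAV-null nerve. The log2 difference between the crush groups, 2.02 ± 0.78 (SE), became 1.25 ± 0.78 without AAV-CNTF replicate 4.

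**Figure D1:**
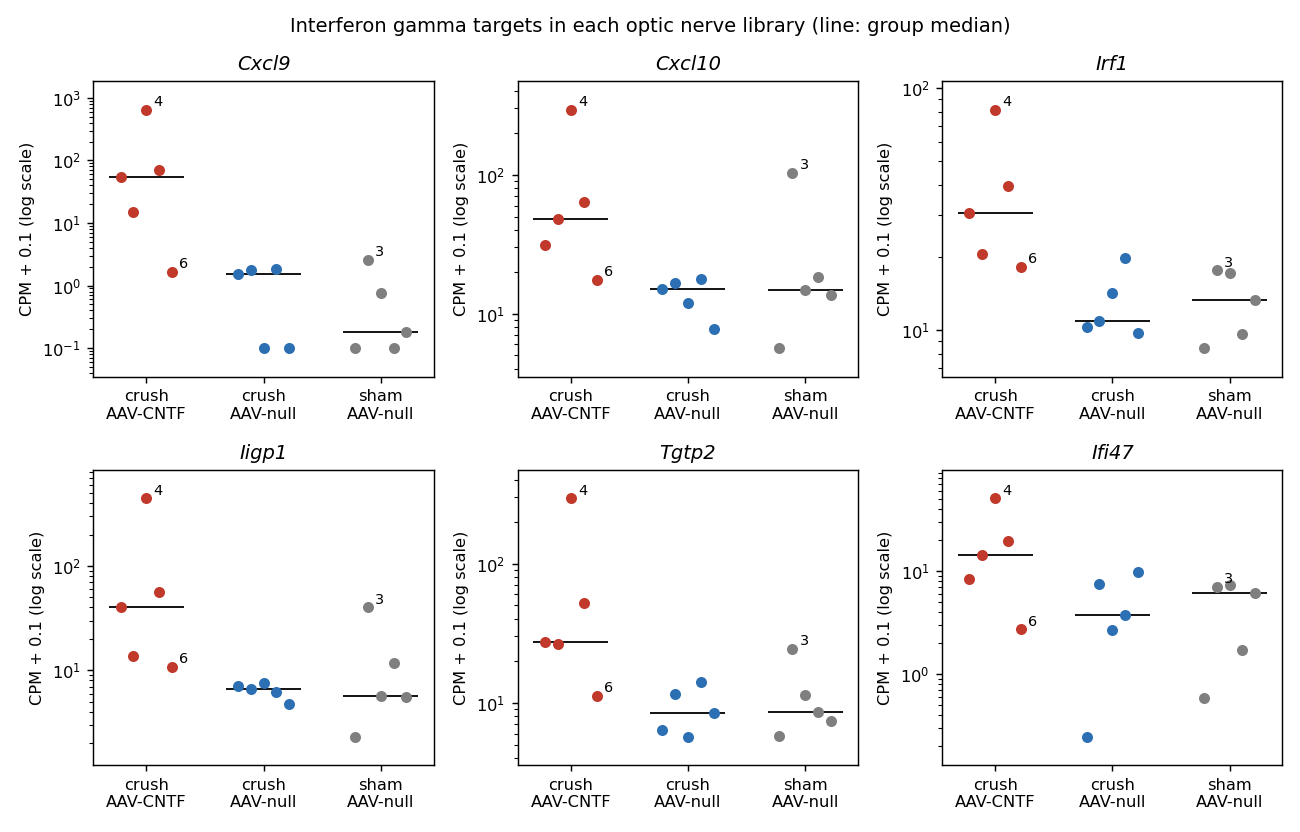
Level of each of the 6 genes in each library, in CPM plus 0.1 on a log axis, with 1 panel per gene and 1 point per library; the line is the group median and the small digits mark crush AAV-CNTF replicates 4 and 6 and sham replicate 3. Replicate 4 was the highest point of every panel and replicate 6 the lowest of its group in every panel.

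The 5 crush AAV-CNTF nerves kept nearly the same order from gene to gene. Replicate 4 was highest for 6 of 6 members, replicate 5 second for 6 of 6 and replicate 6 lowest for 6 of 6. Replicate 4 alone held 82.1% of the summed CPM of its group for Cxcl9, 78.6% for Iigp1, 71.6% for Tgtp2, 64.8% for Cxcl10, 53.2% for Ifi47 and 42.9% for Irf1. Its ratio to the next highest nerve was 9.26 for Cxcl9 and 2.08 for Irf1, with the others between. Replicate 6 lay within the crush AAV-null range for every member except Iigp1, where it was 10.7 CPM against 4.63 to 7.39 CPM. Over the other 4 crush AAV-CNTF nerves, without replicate 4, the mean was 35.3 ± 32.5 CPM for Cxcl9, 39.9 ± 20 CPM for Cxcl10, 27.1 ± 9.66 CPM for Irf1, 30.2 ± 21.9 CPM for Iigp1, 29.2 ± 16.8 CPM for Tgtp2 and 11.2 ± 7.37 CPM for Ifi47 (SD, n = 4).

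Levels of different genes are compared on the authors' FPKM scale, which divides by gene length. In crush AAV-CNTF nerves the median FPKM ran from Cxcl9 (98.5) through Cxcl10 (59.7), Irf1 (26.6), Iigp1 (15.2) and Tgtp2 (11.1) to Ifi47 (10.1), and no neighbours in this order had ranges apart from each other. In crush AAV-null nerves the order was Cxcl10 (17.2), Irf1 (12.3), Tgtp2 (6.87), Cxcl9 (5.46), Ifi47 (3.36) and Iigp1 (2.59). In sham nerves it was Cxcl10 (15.6), Irf1 (8.82), Ifi47 (5.32), Tgtp2 (4.93), Iigp1 (1.94) and Cxcl9 (0.03). Cxcl9 thus stood at the top of the order by median in the crush AAV-CNTF group and at the bottom in the sham group. FPKM of Cxcl9 and Tgtp2 depends strongly on the transcript lengths that the quantification assigned in each library, since the counts that make up 1 FPKM ranged from 4.12 to 68.4 for Cxcl9 and from 8.1 to 77.1 for Tgtp2, a span of 16.6 and 9.51 times against 1.47 to 2.45 times for the other 4 members.

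Cxcl9 and Cxcl10, which share the receptor Cxcr3, did not keep a fixed ratio. On the FPKM scale Cxcl9 was above Cxcl10 in 3 of 15 libraries, crush AAV-CNTF replicates 2, 4 and 5, with 98.54, 901.08 and 137.94 FPKM of Cxcl9 beside 35.34, 350.05 and 73.97 FPKM of Cxcl10. In crush AAV-CNTF replicate 3 the order was the other way, with 14.82 FPKM of Cxcl9 and 59.66 FPKM of Cxcl10. Sham replicate 3 had the second highest Cxcl10 level of all libraries with little Cxcl9, 100.69 FPKM beside 5.63 FPKM.

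**Figure D2:**
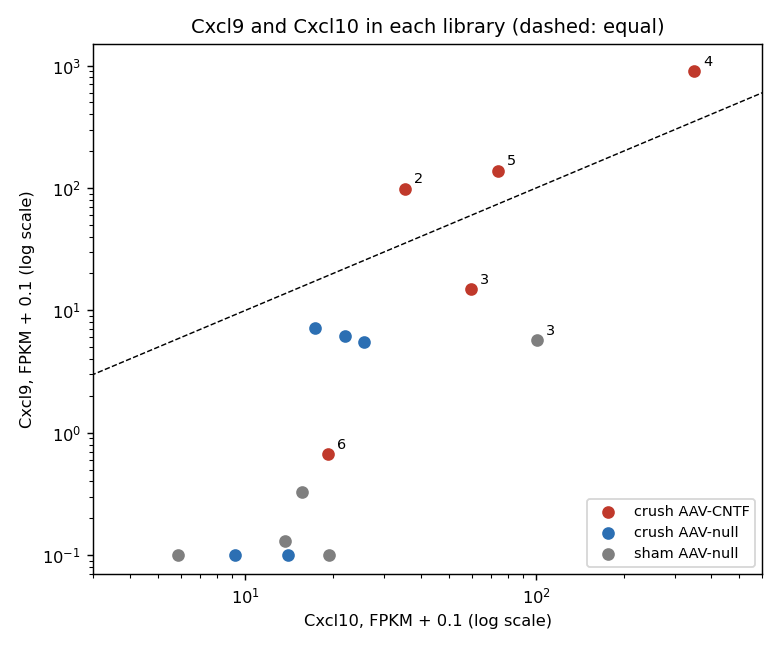
Cxcl9 against Cxcl10 in each of the 15 libraries, in FPKM plus 0.1 on log axes, coloured by group, with digits for the crush AAV-CNTF replicates and sham replicate 3; the dashed line marks equal levels. Only crush AAV-CNTF replicates 2, 4 and 5 lie above the line, and sham replicate 3 lies to the right of all other AAV-null nerves at 100.69 FPKM of Cxcl10.

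Between crush AAV-null and sham AAV-null nerves the members gave values in both directions. The log2 difference, crush AAV-null over sham, was 0.48 ± 1.5 for Cxcl9, -1.18 ± 0.69 for Cxcl10, -0.03 ± 0.34 for Irf1, -1.04 ± 0.82 for Iigp1, -0.32 ± 0.63 for Tgtp2 and 0.08 ± 0.77 for Ifi47 (SE, 5 libraries each). The negative values of Cxcl10 and Iigp1 include sham replicate 3, which held 103 CPM and 40.0 CPM of them, and were 0.07 and 0.02 without it. Cxcl9 was at 2.25 without sham replicate 3. None of the 6 had groups without overlap (10.5% of all genes tested were higher and 10.1% lower in this way). The median over the members was -0.17, beside 0 over all genes tested. For crush AAV-CNTF over sham the log2 difference was 7.91 ± 1.36 for Cxcl9, 3.12 ± 0.84 for Iigp1, 2.85 ± 0.66 for Tgtp2 and 2.09 ± 0.79 for Ifi47 (SE), and without AAV-CNTF replicate 4 these were 5.75 ± 1.2, 1.22 ± 0.59, 1.35 ± 0.42 and 1.32 ± 0.78. Without sham replicate 3 instead, Cxcl10 was at 2.8 and Iigp1 at 4.19. The authors' deposited table gives log2 fold changes between the crush groups of 7.37 for Cxcl9, 2.73 for Cxcl10, 1.55 for Irf1, 4.16 for Iigp1, 3.16 for Tgtp2 and 2.02 for Ifi47. The 3 comparisons share groups, so they are not separate evidence.

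Across the 15 libraries the members moved together, as a description of libraries that share groups. Pearson's r of log2 CPM between pairs of members ran from 0.61 (Cxcl9 with Ifi47) to 0.95 (Cxcl10 with Iigp1), and from 0.39 to 0.92 after the group means were removed. Without AAV-CNTF replicate 4 the range was 0.47 to 0.9 over 14 libraries. The 5 pairs with Ifi47 had the lowest r of the 15 pairs. The 8 other genes, of 13950 with a mean of at least 1 CPM, whose log2 CPM was most like the mean of the standardised members were Gbp7 (r = 0.95), Irgm1 (0.95), Dtx3l (0.94), Gbp2 (0.94), Gbp4 (0.92), H2-Q4 (0.92), Gbp3 (0.91) and Stat2 (0.9). After the group means were removed they were Irgm1 (0.95), Gbp7 (0.91), Stat2 (0.9), Gm10382 (0.9), Tgtp1 (0.89), Trim56 (0.89), Gbp2 (0.89) and Gbp4 (0.88).

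The rest of the pathway was taken as 82 listed genes, of which 71 were tested with edgeR's quasi-likelihood test, adjusted by Benjamini-Hochberg over all 14194 genes tested with 0.05 as the threshold. In crush AAV-CNTF over sham nerves 51 of the 71 (71.8%) were higher and 1 was lower, beside 17% higher and 14.3% lower of all genes tested, and their median log2 difference was 1.39, beside 0.01. Without AAV-CNTF replicate 4 the count was 38 higher and 1 lower, with a median of 0.83. Of the 71 genes, 8 were listed through the crush AAV-CNTF group only, and of the other 63 genes 47 were higher and 1 lower. Between the crush groups 2 of the 71 were higher and none lower, beside 0.0423% and 0.0141% of all genes tested (6 and 2 genes, 0.0564% in either direction), with 65 of 71 values above 0 and a median of 0.97. That median was 0.58 without AAV-CNTF replicate 4, and then none of the 71 passed. The count of 2 became 16 without AAV-CNTF replicate 6 and 16 with DESeq2, and 0 by limma-voom with sample quality weights. Of all genes tested, 38, 55 and 3 were higher in these settings, in the same order. At an unadjusted p under 0.05 by edgeR, 1091 of all 14194 genes tested passed between the crush groups in either direction. This is the background for every unadjusted list count given below. In crush AAV-null over sham nerves 14 were higher and 2 lower, shares of 19.7% and 2.82% beside 14.7% and 12.9% of all genes tested.

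Of the receptor and signalling genes, 4 of 9 were higher (44.4%) and 1 lower (11.1%) in crush AAV-CNTF than in sham nerves. Of all genes tested, 17% were higher and 14.3% lower. Ifngr2, the signalling chain of the receptor, averaged 60.7 ± 10.8 CPM in crush AAV-CNTF and 59.7 ± 3.2 CPM in crush AAV-null nerves, against 24.6 ± 3.13 CPM in sham nerves (SD, n = 5 each). It was higher than sham by 1.3 ± 0.13 on the log2 scale with AAV-CNTF (edgeR adjusted p = 2.47e-07) and by 1.28 ± 0.13 with AAV-null (adjusted p = 3.49e-07). Ifngr1, the binding chain, averaged 77.1 ± 9.41 CPM in crush AAV-CNTF nerves, against 56 ± 7.17 CPM in sham nerves (log2 difference 0.46 ± 0.13, edgeR adjusted p = 0.00949). The ligand gene Ifng was not analysed here.

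The kinase gene Jak1 was higher by 0.42 ± 0.1 (edgeR adjusted p = 0.00182) in crush AAV-CNTF than in sham nerves, Jak2 did not pass (-0.19 ± 0.1, adjusted p = 0.18), and the phosphatase gene Ptpn11 was lower by edgeR's test, with 181 ± 11 CPM in crush AAV-CNTF nerves against 263 ± 21.6 CPM in sham nerves (adjusted p = 4.75e-05).

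The negative regulators Socs1 (log2 difference 1.27 ± 0.64, edgeR adjusted p = 0.149), Ptpn2 (0.62 ± 0.28, adjusted p = 0.103) and Pias1 (-0.13 ± 0.14, adjusted p = 0.555) did not pass in that comparison. In crush AAV-null over sham nerves Jak1 was higher (0.32 ± 0.1, edgeR adjusted p = 0.0143) and Jak2 lower (-0.47 ± 0.1, adjusted p = 0.00179). None of the 9 passed between the crush groups by edgeR or by DESeq2, with 3 higher at an unadjusted p under 0.05.

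Of the other IRG GTPases, 8 of 11 were higher and none lower in crush AAV-CNTF than in sham nerves, with a median log2 difference of 1.48. The share higher was 72.7%, beside 17% of all genes tested. The regulators Irgm1 and Irgm2, which keep effector IRG proteins inactive on the cell's own membranes, averaged 66 ± 51.7 CPM and 67 ± 63 CPM in crush AAV-CNTF nerves, against 25.1 ± 13.4 CPM and 24.1 ± 6.37 CPM in sham nerves. Irgm1 was higher by 1.4 ± 0.37 (edgeR adjusted p = 0.00672) and Irgm2 by 1.48 ± 0.39 (adjusted p = 0.00566), and both calls held without AAV-CNTF replicate 4 (0.79, adjusted p = 0.0427, and 0.72, adjusted p = 0.0341), as in all 23 alternatives. Igtp, the third regulator, was at 35.9, 31.3, 212, 53 and 17.5 CPM in crush AAV-CNTF nerves, against 10.8, 39.4, 16.6, 21.5 and 6.27 CPM in sham nerves. Its difference of 1.89 ± 0.55 (edgeR adjusted p = 0.0119) was 0.86 without that replicate and no longer passed (adjusted p = 0.131), the only one of 23 alternatives in which the call was lost.

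Tgtp1, the near copy of Tgtp2, averaged 45.1 ± 66.2 CPM in crush AAV-CNTF nerves against 3.46 ± 2.45 CPM in sham nerves, a log2 difference of 3.7 ± 0.75 (edgeR adjusted p = 0.000673), and 2.2 without AAV-CNTF replicate 4 (adjusted p = 0.00482). The Tgtp1 call was lost in 1 of 23 alternatives, limma-voom with sample quality weights (adjusted p = 0.106). F830016B08Rik (3.02 ± 0.89, edgeR adjusted p = 0.013) and Gm12250, annotated in GENCODE M21 as a processed pseudogene (3.02 ± 1.02, adjusted p = 0.0276), passed with all libraries. They did not pass without AAV-CNTF replicate 4 (1.97, adjusted p = 0.108, and 1.33, adjusted p = 0.367). By limma-voom with sample quality weights neither passed (adjusted p = 0.088 and 0.11). Gm12250 also did not pass without sham replicate 4 or 6, or with replicate number as a block (edgeR adjusted p = 0.0536). Both of these genes were listed through the crush AAV-CNTF group only. The near-identical pair 9930111J21Rik1 (1.39 ± 0.37, edgeR adjusted p = 0.006) and 9930111J21Rik2 (1.42 ± 0.23, adjusted p = 5.8e-05) was higher with and without that replicate.

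The 9930111J21Rik2 gene was the 1 of 11 IRG genes that also passed by edgeR with all libraries in crush AAV-null over sham nerves (9.09%, beside 14.7% higher of all genes tested). It was at 75.3 ± 16.5 CPM against 36.3 ± 12.5 CPM (log2 difference 1.05 ± 0.23, edgeR adjusted p = 0.00131). Its near copy 9930111J21Rik1 was at 0.94 there. DESeq2 and limma-voom with sample quality weights each called 2 of the 11 higher, so the count of 1 depends on the test. Gm4951, a neighbour of Iigp1, did not pass over sham (1.67 ± 0.81, edgeR adjusted p = 0.128), nor did Gm5431 (0.48 ± 0.63, adjusted p = 0.62) or Irgq (0.11 ± 0.14, adjusted p = 0.612). Between the crush groups edgeR called none of the 11, with 7 higher at an unadjusted p under 0.05. DESeq2 called 2 of them higher, beside 55 of all genes tested. The largest values there were 3.43 ± 0.91 for F830016B08Rik (edgeR adjusted p = 0.194), 3.06 ± 0.86 for Gm4951 (adjusted p = 0.233) and 2.76 ± 0.72 for Tgtp1 (adjusted p = 0.177), with Igtp at 2.55 ± 0.57 (adjusted p = 0.0869) and Irgm2 at 1.8 ± 0.39 (adjusted p = 0.0768).

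**Figure D3:**
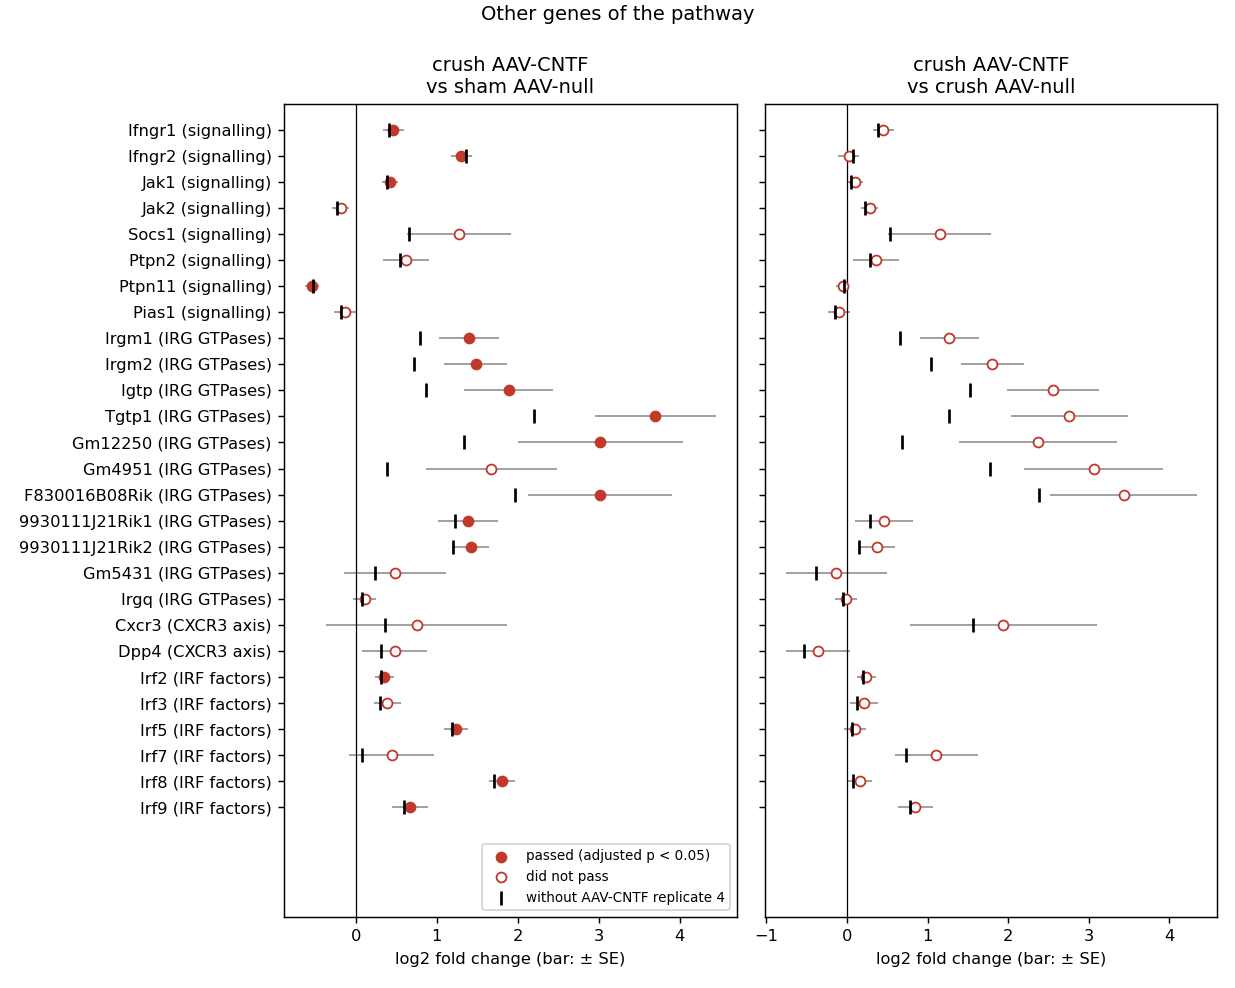
Log2 difference of the signalling genes, other IRG GTPases, genes of the CXCR3 axis and other IRF transcription factors, in crush AAV-CNTF over sham nerves (left) and over crush AAV-null nerves (right); points are fitted values with bars of 1 SE, filled where edgeR's adjusted p was under 0.05, and black ticks are the values without AAV-CNTF replicate 4. Ifngr2, Irf5 and Irf8 passed at left with ticks close to their points, while for Igtp, Gm12250 and Tgtp1 the ticks lie well below.

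For the chemokine receptor itself, Cxcr3 was at 3.93, 2.99, 7.9, 3.08 and 2.48 CPM in crush AAV-CNTF nerves, at 0.636, 0, 1.58, 0.496 and 2.54 CPM in crush AAV-null nerves and at 0, 8.08, 0.884, 0 and 3.16 CPM in sham nerves. It did not pass over sham (0.75 ± 1.12, edgeR adjusted p = 0.669) or over crush AAV-null nerves (1.94 ± 1.16, adjusted p = 0.774). Dpp4, a peptidase that trims Cxcr3 ligands, did not pass over sham either (0.48 ± 0.4, adjusted p = 0.405). Neither gene was called by edgeR or DESeq2 between the crush groups, where no unadjusted p was under 0.05. Cxcl11, the third Cxcr3 ligand, was not analysed here.

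Among the other interferon regulatory factors 4 of 6 were higher (66.7%, beside 17% of all genes tested) and none lower in crush AAV-CNTF than in sham nerves. Irf8, a factor of the macrophage and microglial lineage, averaged 77.5 ± 14.6 CPM in crush AAV-CNTF nerves and 69.6 ± 12.2 CPM in crush AAV-null nerves, against 22.3 ± 3.83 CPM in sham nerves. It was higher than sham with AAV-CNTF (1.8 ± 0.16, edgeR adjusted p = 3.77e-08) and with AAV-null (1.64 ± 0.16, adjusted p = 1.2e-07). Irf5 followed the same course (1.24 ± 0.15, adjusted p = 1.48e-06 with AAV-CNTF, and 1.14 ± 0.15, adjusted p = 4.98e-06 with AAV-null). Irf9, a factor of type I interferon signalling, was higher in crush AAV-CNTF than in sham nerves (0.67 ± 0.22, edgeR adjusted p = 0.0246), as was Irf2 (0.35 ± 0.12, adjusted p = 0.0354), and neither passed without AAV-CNTF replicate 4. The Irf9 call was also lost without sham replicate 2 or 6, and the Irf2 call was lost in 9 of 23 alternatives. Between the crush groups none of the 6 was called by edgeR or DESeq2, with 2 higher at an unadjusted p under 0.05. Irf1, for comparison, averaged 12.9 ± 4.22 CPM in crush AAV-null and 13.2 ± 4.24 CPM in sham nerves (SD, n = 5 each).

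Of 43 other targets of interferon gamma, 35 were higher and none lower in crush AAV-CNTF than in sham nerves (27 without AAV-CNTF replicate 4). This was a share of 81.4%, beside 17% of all genes tested. In crush AAV-null over sham nerves 9 were higher (5 without sham replicate 6), a share of 20.9% beside 14.7% of all genes tested. Of the 43, 4 were listed through the crush AAV-CNTF group only, so a difference was built into their listing, and of the other 39 genes 33 were higher than sham with AAV-CNTF (26 without replicate 4). By role, 6 of 6 genes of MHC class II presentation were higher than sham with and without replicate 4, with medians of 2.68 and 2.26. One of the 6, Ciita, the class II transactivator, was listed through the crush AAV-CNTF group only, and the other 5 were all higher as well, with medians of 2.66 and 2.25. All 12 genes of MHC class I and antigen processing were higher, and 10 of them without replicate 4. Of the guanylate-binding proteins, GTPases that act on pathogen vacuoles beside the IRG proteins, 7 of 8 were higher, and 2 of 8 without replicate 4. Cd74, the MHC class II invariant chain, was at 766, 439, 2040, 641 and 187 CPM in crush AAV-CNTF nerves, at 189, 138, 139, 226 and 183 CPM in crush AAV-null nerves and at 102, 114, 91.3, 211 and 105 CPM in sham nerves.

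Cd74 and H2-Eb1 were the 2 pathway genes that passed between the crush groups by edgeR with all libraries. Of the 43 targets, 37 were higher there at an unadjusted p under 0.05, beside 1091 of all 14194 genes tested in either direction. Of the 43, 14 were called higher by DESeq2, and 14 by edgeR without AAV-CNTF replicate 6, beside 55 and 38 of all genes tested in the same order. Cd74 was higher by 2.22 ± 0.41 (edgeR adjusted p = 0.0473) and H2-Eb1, an MHC class II beta chain, by 1.75 ± 0.32 (adjusted p = 0.0473). Without AAV-CNTF replicate 4 they were at 1.54 (adjusted p = 0.0835) and 1.37 (adjusted p = 0.111), so neither passed. The Cd74 call was also lost in 13 other alternatives of 23 (adjusted p 0.00193 to 0.21 over all 23), among them AAV-CNTF replicate 2, each crush AAV-null library and sham replicates 2, 3, 4 and 6 left out in turn. No pathway gene passed without AAV-CNTF replicate 2, with only the libraries compared or by limma-voom with sample quality weights. The H2-Eb1 call was therefore lost in these settings too. B2m, the MHC class I light chain, averaged 2470 ± 1230 CPM in crush AAV-CNTF and 1330 ± 107 CPM in crush AAV-null nerves, against 826 ± 170 CPM in sham nerves. It was higher than sham in both (1.58 ± 0.22, edgeR adjusted p = 1.25e-05, with AAV-CNTF, and 0.69 ± 0.22, adjusted p = 0.0219, with AAV-null), the second of which was lost without sham replicate 5 or 6 and with DESeq2 (adjusted p = 0.0569). H2-D1 (0.94 ± 0.15, edgeR adjusted p = 4.43e-05) and the complement inhibitor gene Serping1 (0.71 ± 0.14, adjusted p = 0.000407) were higher in crush AAV-CNTF than in sham nerves as well.

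Genes known mainly as type I interferon targets were followed for comparison, in a list that also holds the receptor genes Ifnar1 and Ifnar2. Of 25 tested, 4 were higher and none lower in crush AAV-CNTF than in sham nerves, a share of 16% beside the 17% of all genes tested. The count was 7 higher without sham replicate 3, and 3 higher and 2 lower without AAV-CNTF replicate 4. The 4 with all libraries were Oas1a, Ifi44 and the receptor genes Ifnar1 and Ifnar2, so this share is not of targets alone. In crush AAV-null over sham nerves 2 were higher and 5 lower, shares of 8% and 20% beside 14.7% and 12.9% of all genes tested. The 2 were Ifnar1 and Ifnar2, and the 5 were Ifit1, Ifit2, Ifit3, Ifit3b and Cmpk2. Without sham replicate 3 the count of lower genes was 2. Ifit3, an antiviral RNA-binding family member, averaged 26 ± 11 CPM in crush AAV-null nerves and 67.9 ± 55 CPM in sham nerves (log2 difference -1.39 ± 0.42, edgeR adjusted p = 0.0168), and this call was lost without sham replicate 3, where Ifit3 was at 162 CPM, and by limma-voom with sample quality weights (adjusted p = 0.078). Ifit2, of the same family, averaged 28.2 ± 1.92 CPM and 55 ± 12.5 CPM in these groups (-0.96 ± 0.19, edgeR adjusted p = 0.000437), and still passed without sham replicate 3 (adjusted p = 0.00196). Between the crush groups edgeR and DESeq2 called none of the 25, with 9 higher at an unadjusted p under 0.05. There 23 of 25 values were above 0, with a median log2 difference of 0.79, and 0.6 without AAV-CNTF replicate 4. The medians of the 71 pathway genes were 0.97 and 0.58 in the same order, so a shift upward was not particular to the pathway genes.

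Crush AAV-CNTF replicate 4 was the highest of all 15 libraries for 6 of 6 members and 59 of 71 other pathway genes (83.1%), against 12 of 25 type I genes (48%) and 7.16% of all genes tested. Sham replicate 3 was the highest for none of the members and 1 of 71 pathway genes (1.41%), against 10 of 25 type I genes (40%) and 7.43% of all genes. Averaged over the 6 members, the log2 deviation from the 15-library mean was 4.3 in crush AAV-CNTF replicate 4, 2.09 in replicate 5 and -0.45 in replicate 6, and in sham nerves it was highest in replicate 3, at 0.75. For the type I list it was also highest in crush AAV-CNTF replicate 4, at 1.19, with sham replicate 3 at 1.1.

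**Figure D4:**
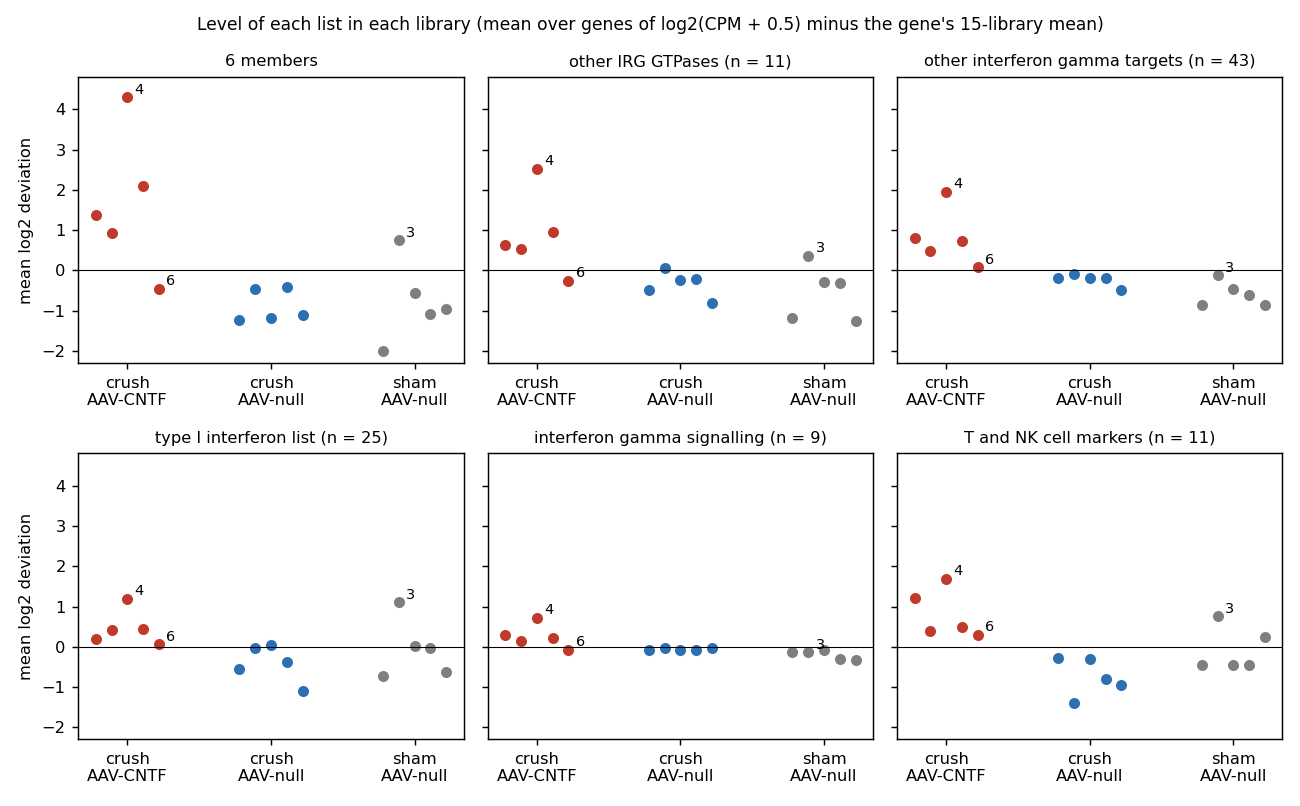
Mean over the genes of each list of log2(CPM + 0.5) minus the gene's mean over all libraries, for each of the 15 libraries, with 1 panel per list and 1 point per library; digits mark crush AAV-CNTF replicates 4 and 6 and sham replicate 3. Crush AAV-CNTF replicate 4 is the highest point for the members (4.3), and for the type I list sham replicate 3 (1.1) lies close to it (1.19).

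Markers of lymphocytes and dendritic cells are given beside these levels because T and NK cells release interferon gamma. Summed T and NK cell markers (11 of 21 listed, with Cd3e and Lck among them) were 76.3, 38.4, 113, 40.7 and 37.7 CPM in crush AAV-CNTF nerves, 24.0, 8.76, 25.1, 15.6 and 13.5 CPM in crush AAV-null nerves and 19.8, 50.6, 18.7, 22.1 and 37.7 CPM in sham nerves. The crush groups did not overlap in this sum. Of all single genes tested 0.838% were higher in this way, but that share is not a like background for a sum over 11 genes. The highest values of the sum fell in crush AAV-CNTF replicate 4 and, among sham nerves, in replicate 3, the same libraries as for most members. Crush AAV-CNTF replicate 5, second for every member, was at 40.7 CPM here, below replicate 2 at 76.3 CPM. Replicate 6 was above all crush AAV-null nerves in this sum, but within their range for every member except Iigp1. Summed dendritic cell markers (5 of 6 listed) were 93.8, 67.1, 94.4, 68.7 and 38.2 CPM in crush AAV-CNTF nerves, 48.0, 28.6, 27.6, 31.5 and 40.3 CPM in crush AAV-null nerves and 16.0, 13.4, 17.4, 15.7 and 18.5 CPM in sham nerves. Among the T and NK cell markers, Nkg7, Lck, Cxcr6, Ms4a4b and Il2rb were listed through the crush AAV-CNTF group only. The same held for Xcr1, Ccr7 and Clec9a among the dendritic cell markers. A difference was therefore built into the listing of these genes and into both sums. Lck, a T cell kinase, was at 0 in 4 of 5 crush AAV-null nerves and was lower there than in sham nerves (0.0722 ± 0.161 CPM against 1.47 ± 0.885 CPM, edgeR adjusted p = 0.00407). Over sham, 1 of the 11 markers was higher with AAV-CNTF (9.09%, beside 17% of all genes tested) and none without AAV-CNTF replicate 4. This was Cd3e, a T cell receptor subunit, which was higher in crush AAV-CNTF than in sham nerves (11.9 ± 6.55 CPM against 3.74 ± 2.57 CPM, edgeR adjusted p = 0.0397), a call lost without AAV-CNTF replicate 4 (adjusted p = 0.1) and in 7 of 23 alternatives in all, AAV-CNTF replicate 2 and sham replicates 2, 4, 5 and 6 left out among them. Between the crush groups edgeR called none of the 11, with 9 higher at an unadjusted p under 0.05. The part of these cells in the levels of the members was not tested.

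Of 6 other chemokines of the CXC family, 3 were higher and none lower than sham, both in crush AAV-CNTF and in crush AAV-null nerves. This was 50% in each, beside 17% and 14.7% of all genes tested in the same order. Cxcl16, a membrane-bound chemokine, averaged 94.4 ± 13.2 CPM in crush AAV-CNTF and 67.7 ± 12.7 CPM in crush AAV-null nerves, against 28.9 ± 8.37 CPM in sham nerves (log2 difference 1.71 ± 0.17, edgeR adjusted p = 2.47e-07, and 1.23 ± 0.17, adjusted p = 1.43e-05, over sham). Cxcl14 (1.24 ± 0.17 with AAV-CNTF, edgeR adjusted p = 9.69e-06) and Pf4, the platelet factor (2.37 ± 0.73, adjusted p = 0.0171), were the other two, and Pf4 did not pass without AAV-CNTF replicate 5 or by limma-voom with sample quality weights (adjusted p = 0.0514). In crush AAV-null over sham nerves the Pf4 call was lost without AAV-null replicate 3, by limma-voom with sample quality weights (adjusted p = 0.158) and with replicate number as a block (edgeR adjusted p = 0.0568), leaving 2 of 6 higher without AAV-null replicate 3. Between the crush groups edgeR and DESeq2 called none of the 6, with 1 higher at an unadjusted p under 0.05.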

How the data were processed

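RNA of whole optic nerve was sequenced in 15 libraries. Per the submitters' processing notes, reads were handled with Trimmomatic 0.32, STAR 2.5.3a, RSEM 1.2.31, R 3.2.3 and DESeq2, with mm10. The labels' protocols name 2 library kits without saying which library used which. Per the file headers the authors deposited 1 table of RSEM expected counts per gene and library, of which 13.7% to 18.3% per library were not whole and were rounded here. Per the file headers the authors also deposited FPKM values, scaled by gene length and depth. The authors deposited log2 fold changes for each pair of groups, and adjusted p-values that were not used. FPKM depends on transcript lengths that RSEM assigns per library, so fold changes rest on counts.

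The rounded counts were fitted with edgeR 4.0.16 in R 4.3.3 as 1 model of 3 group means, which leaves 12 residual degrees of freedom. It used TMM scaling, filterByExpr and the quasi-likelihood test, with Benjamini-Hochberg adjustment over 14194 genes and a threshold of 0.05, and the fit was tested on simulated data. CPM uses TMM-scaled totals of listed genes, and log2 CPM a prior count of 2. The biological coefficient of variation was 0.371, so the spread between libraries and not counting error limits precision. Positions came from GENCODE M21 (14215 of 14237 identifiers matched). Alternatives tried were scaling by RLE or by the upper quartile, a low-count filter at a mean of 1 CPM or none, fits to just the 2 groups compared, a block for the replicate number, DESeq2 1.42.0, limma-voom with sample quality weights (limma 3.58.1), which changes the test and down-weights variable libraries together, log2(FPKM + 0.1) and log2(FPKM + 1) for the members, and each library left out.

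The members and gene lists were chosen with earlier results of these data known. Genes named are all members, every signalling, IRG and CXCR3 gene in the table, up to 4 of the most abundant called genes of each other list, called T and NK cell genes, and the 8 genes most like the members. H2-Eb1, Oas1a, Ifi44, Ifit1, Ifit3b and Cmpk2, and the split of targets by role, were chosen after values were seen. Some genes that the lists or the rule select are not reported here by name, and list counts include them. Replicate numbers were not treated as pairs, since nothing in the labels ties them and same-number libraries did not deviate together.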

Additional observations from a re-analysis of the deposited data

Results flagged for a closer look

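Within groups of 5 libraries, 19 of 132 gene and group pairs (44 genes) had 1 library whose gap to the nearest other was more than 0.71 of the group's range in CPM. For normally distributed values chance gives this in about 1 of 20 groups. CPM is skewed here, with each of the 19 on the high side, so the chance rate on this scale is not known, and genes that move together are not independent. Of the 19, 11 were in the crush AAV-CNTF group, all in replicate 4, and 7 were in sham nerves, 5 of them in replicate 3.

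In crush AAV-CNTF replicate 4 the members Cxcl9 (648 CPM, next 70), Cxcl10 (294, next 63.3), Iigp1 (444, next 56.5) and Tgtp2 (294, next 51.8) stood apart. The same held for Irgm1 (157 CPM, next 53.4), Irgm2 (177, next 61.3), Igtp (212, next 53), Tgtp1 (162, next 35.2), Gm12250 (26.9, next 3.77), Gm4951 (46.4, next 7.85) and Cxcr3 (7.9, next 3.93).

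In sham replicate 3 they were Cxcl9 (2.49 CPM, next 0.652), Cxcl10 (103, next 18.3), Iigp1 (40, next 11.6), Gm4951 (11.1, next 3.22) and Ifit3 (162, next 66.5). The remaining 3 were Cd74 in sham replicate 5 (211 CPM, next 114), Cxcl16 in sham replicate 4 (43.3, next 28.7) and Lck in crush AAV-null replicate 5 (0.361, with the other 4 at 0).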

How the results depend on the processing

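Calls between the crush groups depended most on the processing. All genes higher there, 6 as reported, became 1 with only the libraries compared, 14 with replicate number as a block, 55 with DESeq2, 3 by limma-voom with sample quality weights, 2 without AAV-CNTF replicate 4 and AAV-null replicate 6 and 1 without AAV-CNTF replicate 4 and sham replicate 3, both pairs left out after the data were seen. Genes lower, 2 as reported, became 0 with only the libraries compared, 23 with DESeq2, and 0 and 1 without these pairs. Pathway genes higher, 2 as reported, became 0 with only the libraries compared, 16 with DESeq2, 0 by limma-voom with those weights and 0 without either pair. With single libraries left out, these ran from 1 (without AAV-CNTF replicate 4) to 38 (without AAV-CNTF replicate 6), 0 to 3, and 0 to 16. The members' median log2 difference, 2.95, was 1.66 and 1.6 without the pairs, 1.65 on log2(FPKM + 1), and 1.61 to 3.22 with single libraries left out. Over sham, crush AAV-CNTF gave 2130 to 2430 genes higher, 1770 to 2082 lower, 38 to 53 pathway genes higher, 1 lower, and a members' median of 1.27 to 3.07 (2.47 as reported), and 1.27 without AAV-CNTF replicate 4 and AAV-null replicate 6. Crush AAV-null over sham gave 1869 to 2099 higher, 1602 to 1852 lower, 10 to 15 pathway genes higher, 2 to 3 lower, and a members' median of -0.38 to 0.13 (-0.17 as reported). The causes were not tested. Members changed sign only in crush AAV-null over sham (Irf1 in 10 of 27 settings, Ifi47 in 8, Tgtp2 in 4, Cxcl10 and Iigp1 in 2 each). Same-number libraries correlated at -0.05 to 0.11 over 15 pairs, 1 of them over 0.1, so the block is no pairing. Cxcl9 outside the crush AAV-CNTF group rests on 104 and 70 counts, which limits its fold changes.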
